A study of Homo sapiens with 15 samples.

Results

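Ribosome biogenesis genes encode the nucleolar proteins, small RNA-protein particles and RNA polymerase I subunits that make ribosomes. The set described here is a list of 43 such genes in 6 roles, chosen by function but with earlier results of these data known. Member counts set beside shares of all genes are therefore a description, not independent support. Each gene was read from 1 probe set, the one with the highest mean over 15 arrays, and 37 of the 43 had a probe set that names no other gene, among 19775 genes with such a probe set. NOP56, DKC1 and BOP1 are named only on probe sets with several gene symbols, and GNL3, DDX18 and EBNA1BP2 were not matched to a probe set, so these 6 genes were not analysed here. Values are on a log2 scale, so a difference of 1 is a 2-fold change.

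All RNA came from Caco-2, an established human colon carcinoma line, kept nondifferentiated and treated for 24 hours in serum-free DMEM. A laboratory model of the colon fermented polydextrose, a poorly digested glucose polymer used as fibre, at 0%, 1% or 2% for 48 hours in 4 linked vessels. Vessel 1 was set up as ascending colon, vessel 2 as transverse and vessel 3 as descending colon, and vessel 4 as the sigmoid and rectal end. The spent fluid, cleared of bacteria, made up 10% of the volume on the cells, and each of the 12 fluids had 1 array. Medium alone, 100 mM NaCl and 5 mM butyrate also had 1 array each. Butyrate is a product of fibre fermentation by gut bacteria.

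The 4 arrays of a concentration are therefore 4 vessels of a single simulation, not repeats of a culture, and concentration cannot be told apart from the simulation run. Means ± SD below are over these 4 vessels, and p-values measure only the spread among these arrays. In bulk RNA fewer cells of a kind and less RNA per cell cannot be told apart.

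Ribosome production starts in the nucleolus, where RNA polymerase I copies the ribosomal RNA genes into a long precursor. Box C/D and box H/ACA particles modify that precursor, and separate sets of assembly factors cut, fold and escort the small and the large subunit. The process takes much of a growing cell's energy, and many of its genes are known direct targets of MYC, a transcription factor that dimerizes with MAX and binds the E-box CACGTG. MYC is often overactive in colon carcinoma cells, and its level is given here as the reference beside the members.

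The E-box is the sequence that MYC binds. Its surroundings are shown for the members that fell from 0% to 2% polydextrose and carry it, and for 3 that did not pass that test. RefSeq promoters of GRCh38.p14, 300 bases long from 250 before the start site, were matched to 35 of the 43 listed genes. CACGTG, which reads the same on both strands, occurred in 14 of these 35 windows (40.0%), in 7.43% of 27305 promoters of the same length, and in 10.6% of the 7340 promoters matched to genes tested here. Each sequence below holds 30 bases on the gene's strand with the E-box in capitals.
WDR43: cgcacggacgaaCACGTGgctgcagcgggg
IMP4: ttctcccggaccCACGTGgaagcggcactc
PNO1: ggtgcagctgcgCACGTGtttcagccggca
MRTO4: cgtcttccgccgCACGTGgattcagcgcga
PES1: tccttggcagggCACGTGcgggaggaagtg
FBL: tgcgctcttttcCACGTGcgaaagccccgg
NOP10: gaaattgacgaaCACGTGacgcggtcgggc
GNL2: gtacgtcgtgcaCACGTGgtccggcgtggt

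These stretches lie at chr2:28894658-28894687 (WDR43, plus strand), chr2:130342900-130342929 (IMP4, plus), chr2:68157885-68157914 (PNO1, plus), chr1:19251807-19251836 (MRTO4, plus) and chr22:30591880-30591909 (PES1, minus). Those of the other members lie at chr19:39846356-39846385 (FBL, minus), chr15:34343130-34343159 (NOP10, minus) and chr1:37595917-37595946 (GNL2, minus). Among the 13 members with both a probe set and an E-box, the E-box nearest to the start site began between 11 bases before it (position -11) and 35 bases after it. Of the 12 matched members that fell from 0% to 2%, 5 had an E-box, and of the 16 that did not pass the test, 6 had it. A second motif searched on both strands, the ETS motif CCGGAAG, occurred in 31.4% of the members' promoters and in 21.7% of those of the genes tested. A match is a description of the letters and does not show binding.

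Of the 37 members, 34 reached a log2 value of 5 in at least 4 of the 12 fluid arrays and were tested among 8737 genes. POLR1A, UTP20 and RRP9 stayed below that limit. NPM1 was the brightest member at 13.38 to 13.61 and UTP20 the dimmest in the fluids at 2.70 to 4.81, although levels of different probe sets are not a measure of relative amount. The labelled epithelial origin was checked on 11 markers: 7, among them EPCAM (13.12 to 13.60) and KRT20 (10.37 to 12.39), were above the limit in every array, while VIL1, CDX1, CDX2 and GPA33 were below it in every array. None of 7 leukocyte markers reached the limit in any array (highest 3.56, CD14), and of 8 fibroblast markers COL1A1 alone did. COL1A1 stood at 1.37 in medium, 3.29 with NaCl, 8.13 with butyrate and 5.26 to 8.26 in the fluids, and the summed level of the 8 markers ran from 5.15 to 8.41 (log2). In vessel 1, where many members were higher, COL1A1 was lower (-1.03, adjusted p = 0.0198 by limma), and its part in the results was not tested. COL1A2, COL3A1, DCN and LUM, which define fibroblasts, stayed between 1.75 and 2.67 in all arrays.

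Medium held the highest of 15 values for 30 of the 37 members, and the share of all genes with that pattern was not counted. POLR1A and RRP9, each under log2 5 in 10 arrays, are among these 30. All 12 fluid arrays were below medium for 33 of the 34 tested members, where 28.2% of all genes tested had that pattern. The exception was NOP10, a small protein of the box H/ACA particle, which stood at 11.28 in medium and at 11.51 to 11.80 in the fluids. The median of the 34 members lay between -0.61 and -1.22 relative to medium in the fluid arrays, while the median of all genes tested lay between 0.003 and 0.078 above it. Medium and the NaCl, butyrate and fluid arrays are compared below without a test, because medium is a single array that all those comparisons share.

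**Figure D1:**
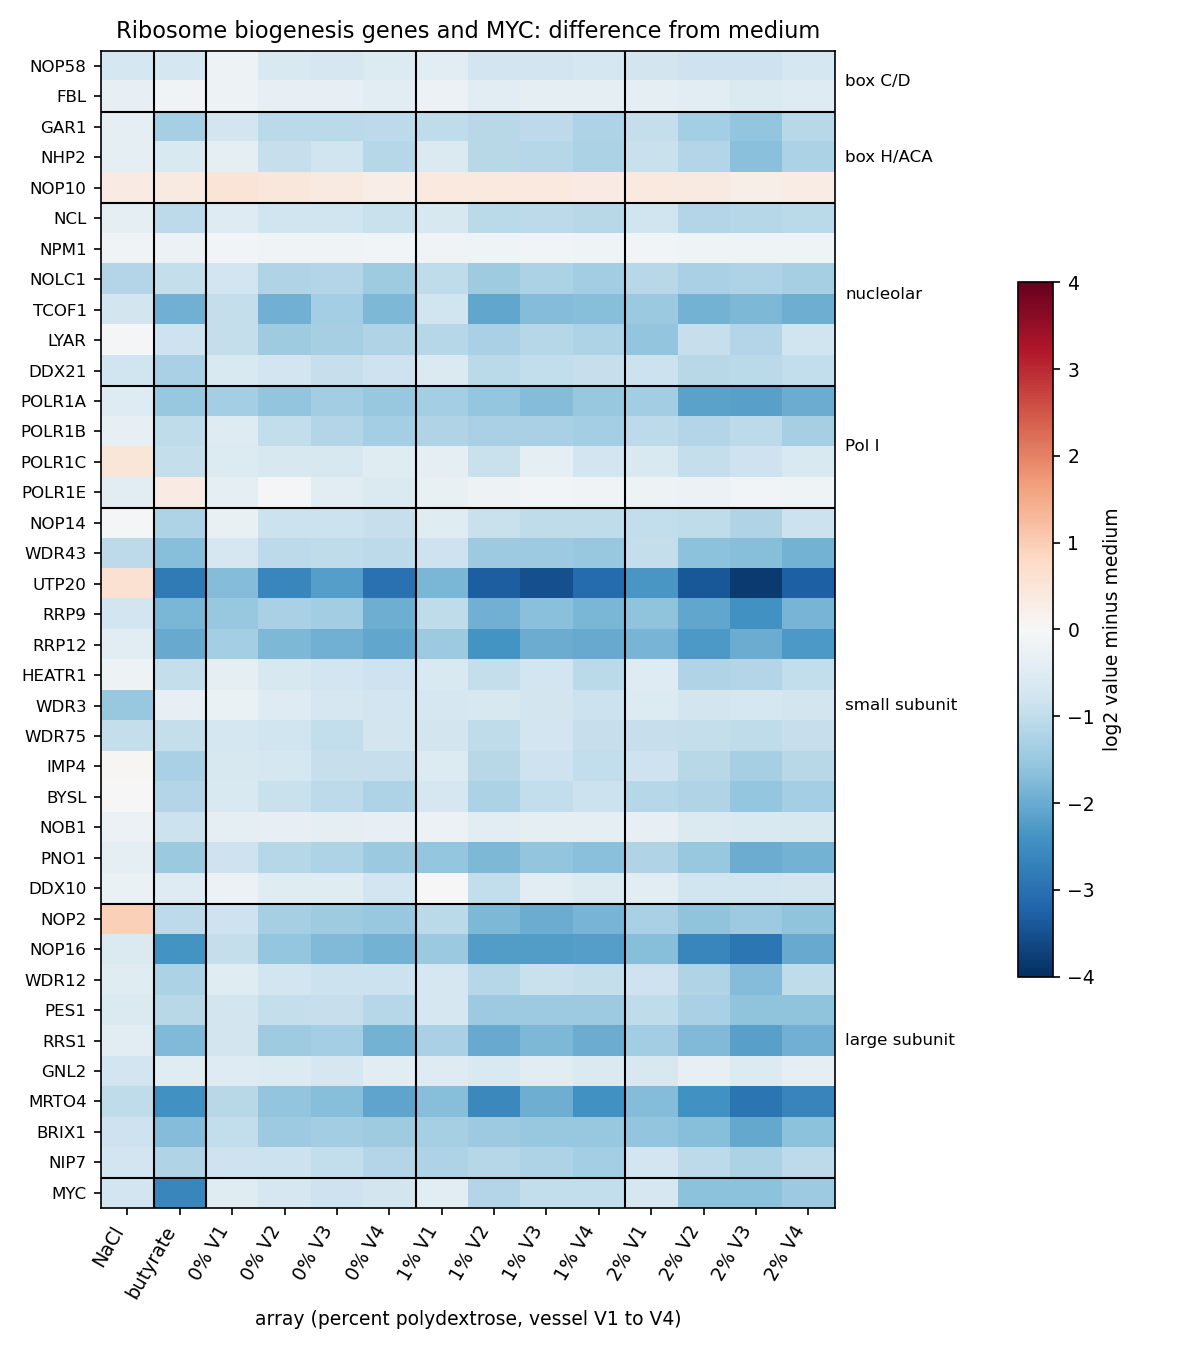
Difference in log2 value from medium for 37 members, grouped by role, and MYC (rows) in the NaCl, butyrate and 12 fluid arrays (columns), where blue is lower and red is higher than medium. NOP10 is above medium in every column, and POLR1A, UTP20 and RRP9 have values under log2 5 in most fluid arrays, so their colours are less certain.

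With butyrate, a known inhibitor of histone deacetylases, more of the set was low than with NaCl. The butyrate array had 30 of 37 members at least 1.5-fold below medium and 0 at least as far above it, against backgrounds of 26.1% lower and 25.8% higher. At a 2-fold limit 22 of 37 members were lower (background 15.6%), and the median was -1.10. A gene was compared if it reached log2 6 on the brighter side. POLR1A, RRP9, UTP20, RRP12 and BRIX1 reached it in medium but not with butyrate, and could therefore only count as lower. Over the 34 members tested in the fluids 27 were at least 1.5-fold lower, 0 higher and 19 at least 2-fold lower (backgrounds 25.7%, 25.7% and 15.2% of such genes), with a median of -1.05. RRP12 and BRIX1 remain among these 34. The largest differences were those of MRTO4 (-2.42) and NOP16 (-2.39), both large-subunit factors, and RRP12 (-2.02), which serves subunit export. POLR1E, an RNA polymerase I subunit, was the member other than NOP10 above medium, at 8.73 against 8.39. MYC stood at 8.94 against 11.56 in medium, a difference of -2.62 that no member with a value above the limit in both arrays passed.

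NaCl, the control for added salt, put 12 of 37 members at least 1.5-fold below medium (background 17.7%) and 2 above (19.9%), with a median of -0.44. At a 2-fold limit 4 were lower (background 7.67%). POLR1A and RRP9 reached log2 6 in medium but not with NaCl, and could only count as lower. Over the 34 members tested in the fluids 11 were at least 1.5-fold lower, 1 higher and 4 at least 2-fold lower (backgrounds 17.7%, 19.0% and 7.59%). WDR3, a small-subunit factor, was the lowest at -1.52, followed by NOLC1, a chaperone of the small RNA-protein particles, at -1.17. The 2 at least 1.5-fold above medium were NOP2 (0.94), which methylates large-subunit rRNA, and UTP20 (0.62), a small-subunit factor. MYC was at -0.78.

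The fluids of the 0% simulation, fermented without polydextrose, were already low. On the mean of 4 vessels 27 of 37 members were at least 1.5-fold below medium (background 15.1%) and 0 above (16.4%), 15 were at least 2-fold below (4.8%), and the median was -0.93. The 1% fluids put 30 of 37 at least 1.5-fold below (19.5%), 0 above (20.7%) and 19 at least 2-fold below (8.88%), with a median of -1.02. In the 2% fluids 31 of 37 were at least 1.5-fold below (21.9%), 0 above (21.4%) and 25 at least 2-fold below (11.4%), with a median of -1.15. POLR1A, UTP20 and RRP9 had fluid means under log2 6 at each concentration and entered through medium, so they could only count as lower. Over the 34 members that passed the limit in the fluids, 24, 27 and 28 were at least 1.5-fold below medium at 0%, 1% and 2% (backgrounds 14.7%, 19.1% and 21.5% of such genes), 0 were above (16.5%, 20.9% and 21.5%), 12, 16 and 22 were at least 2-fold below (4.28%, 8.4% and 11.0%), and the medians were -0.80, -0.95 and -1.11. Among these 34, the fluid means of RRP12, and of BRIX1 at 1% and 2%, were under log2 6. There they could only count as lower. MYC lay at -0.68, -0.91 and -1.35 in the same 3 comparisons. In the 0% fluids 26 members lay at least as far below medium as MYC, in the 1% fluids 21 and in the 2% fluids 13. The cut-off in these counts is the difference of MYC itself, which was larger at higher concentrations. POLR1A, UTP20 and RRP9 are among the members counted, and the share of all genes past MYC was not counted.

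Read against NaCl in place of medium, the members were less low. With butyrate 21 of the 35 members compared were at least 1.5-fold below NaCl (background 28.0%). At least as far above it were 2, WDR3 (1.18) and POLR1E (0.81), beside 2086 of the 8153 genes compared. The counts were 15 of 35 for 0% (21.7%), 19 of 35 for 1% (22.9%) and 21 of 35 for 2% (26.0%), with medians of -0.43, -0.64 and -0.81. At each concentration 1 member, WDR3, was at least 1.5-fold above NaCl, beside 1644 of 7994, 1786 of 8043 and 1839 of 8062 genes. UTP20 and RRP12 are among these 35 through their NaCl values alone, as is BRIX1 with butyrate, 1% and 2%. There they could only count as lower. All 12 fluid arrays were below both medium and NaCl for 19 of 34 members (background 15.9%), among them NCL, GAR1, PES1 and MRTO4. MYC differed from NaCl by 0.10, -0.13 and -0.57 at the 3 concentrations, so in the 0% and 1% fluids it lay near its NaCl level.

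**Figure D2:**
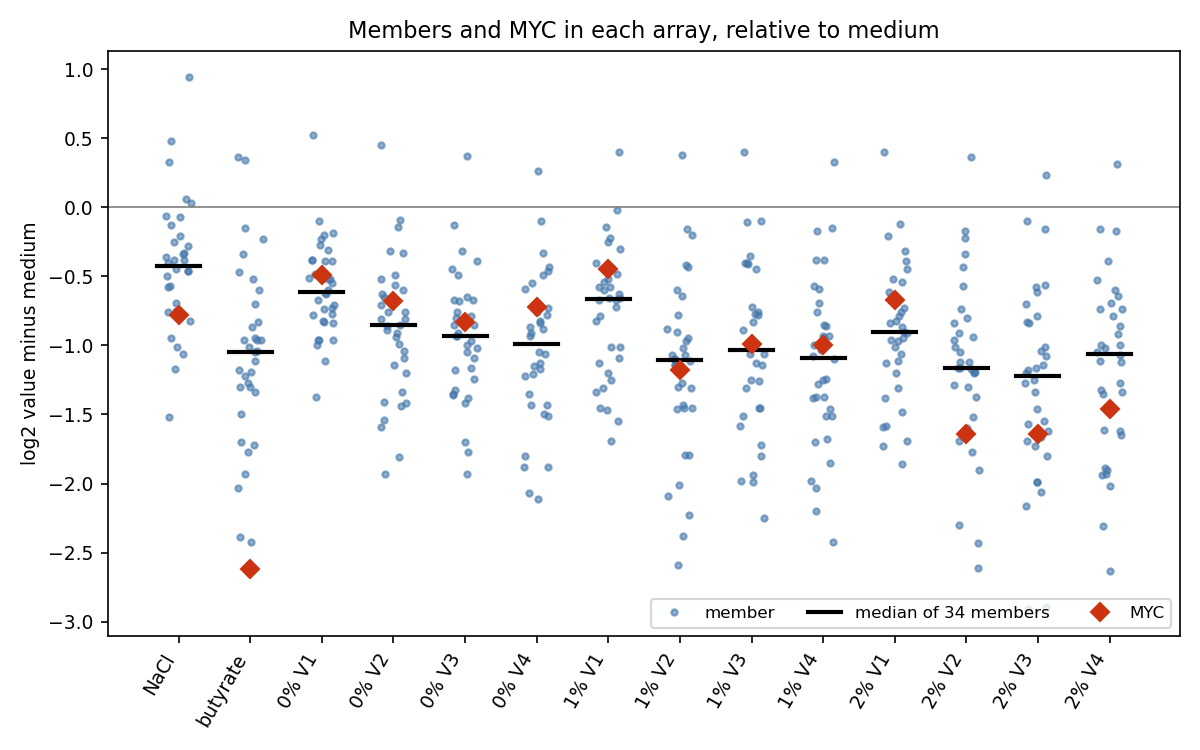
Log2 value minus medium (vertical axis) for the 34 tested members (blue points), their median (black bars) and MYC (red diamonds) in each array. The members' median lies at -0.61 in the 0% fluid of vessel 1 and at -1.05 with butyrate, where MYC lies far below it at -2.62.

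RNA quality moved with some of these contrasts. The 3' minus 5' signal of the ACTB control, which rises when RNA is broken or poorly copied, was 0.95 in medium, 0.64 with NaCl, 0.59 with butyrate, 0.73, 0.92 and 0.62 in vessel 1 at 0%, 1% and 2%, and 0.37 to 0.64 in the other 9 fluid arrays. In these arrays the members' median relative to medium was -0.42 with NaCl, -1.05 with butyrate, -0.61, -0.66 and -0.91 in vessel 1 at 0%, 1% and 2%, and -0.85 to -1.22 in the other 9 fluids. Medium and vessel 1 at 0% and 1% had the 3 highest ACTB values, while NaCl, with members closer to medium than in any fluid, had a lower one than these. Its part in the results was not tested. The GAPDH control differed little, from -0.12 to 0.04.

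The fitted comparison asks what 2% polydextrose in the simulation changed over 0%, with limma and the vessel as a block. Of 34 members 14 fell and 0 rose at an adjusted p under 0.05, where 11.2% of all genes tested fell and 9.65% rose. At an unadjusted p under 0.05 it was 20 that were lower and 0 higher, against 19.5% and 17.0% of all genes tested. The members' median change was -0.26, against -0.01 over all genes, and 31 of 34 were below 0. All 14 that fell were lower at 2% in each of the 4 vessels, but the fit chose them from these same differences, so this is not added support. By role the calls were 6 of 9 assembly factors of the large subunit, 4 of 11 of the small subunit, 2 of 6 nucleolar proteins, 1 of 3 box H/ACA, 1 of 2 box C/D and 0 of 3 RNA polymerase I genes.

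The call depends on the vessel term. Without it limma called 0 of the 34 members and 0 of all 8737 genes (13 members and 1952 genes at an unadjusted p under 0.05). With 1 array left out at a time the count ran from 2 to 14. Calls over all 8737 genes moved too, and the genes that fell, 977 in the main fit, are given in brackets. The count was 2 (384) without the 0% array of vessel 3, 3 (360) without that of vessel 2 and 7 (528) without that of vessel 4. It was 4 (407), 6 (436), 7 (483) and 9 (1198) without the 2% arrays of vessels 3, 2, 4 and 1. Without the 1% array of vessel 4 it was 9 (768). Fitted on the 8 arrays compared alone, it was 4 (454). Of the alternatives run, WDR43 kept its call in 21 of 22, NOP16 in 20, MRTO4 in 18, NCL, NHP2 and PES1 in 15, PNO1 and RRS1 in 14, WDR12 in 10, DDX21 and HEATR1 in 9, IMP4 in 8 and NOP58 in 6, and BRIX1 in 18 of 21.

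**Figure D3:**
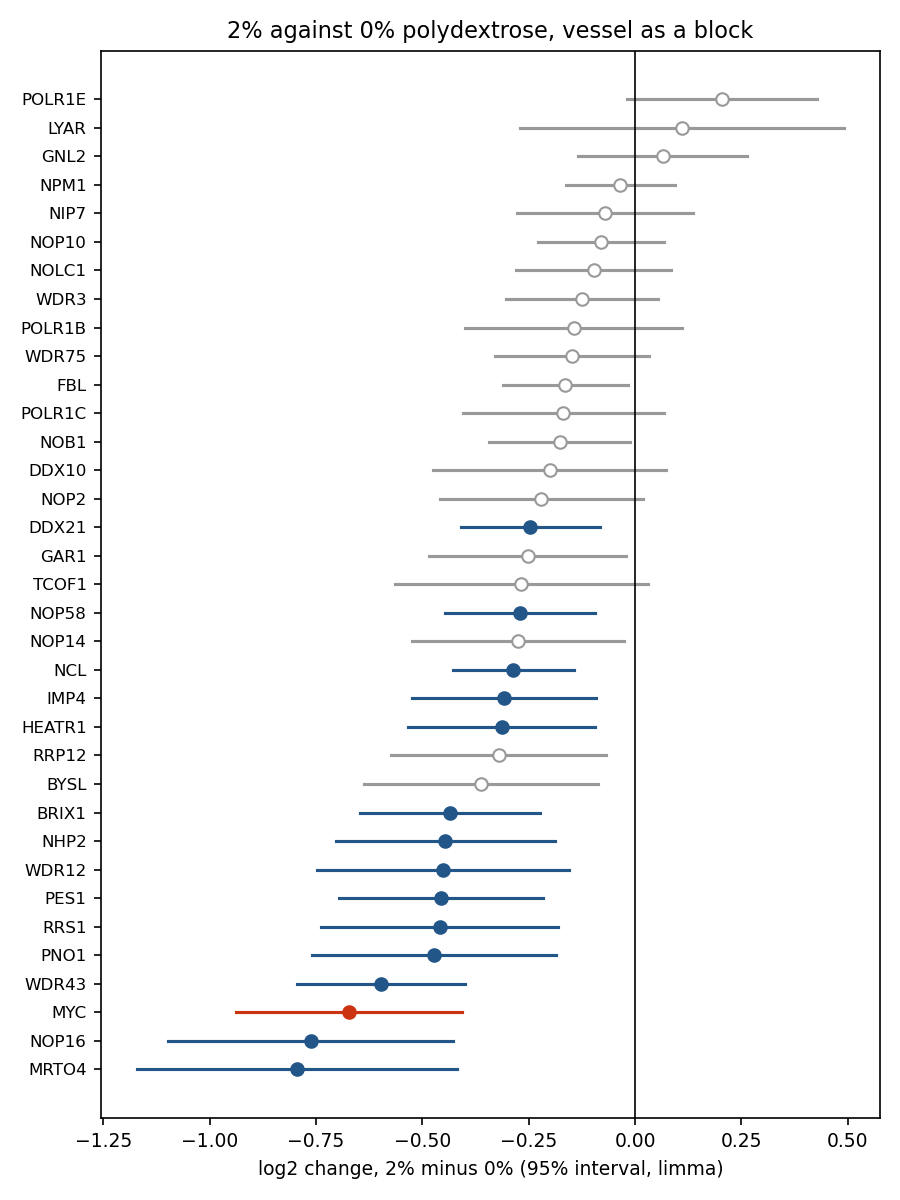
Log2 change from 0% to 2% polydextrose (horizontal axis) with its 95% interval from limma for 34 members and MYC, ordered by the change. Filled points passed an adjusted p of 0.05: MRTO4 at -0.79 and NOP16 at -0.76 lie beyond MYC (red) at -0.67, and POLR1E, LYAR and GNL2 lie above 0 with open points.

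MYC itself stood at 11.07, 10.88, 10.73 and 10.84 in vessels 1 to 4 at 0%, at 11.11, 10.38, 10.57 and 10.56 at 1%, and at 10.89, 9.92, 9.92 and 10.10 at 2%. The 2% array of vessel 1 is the one that reaches into the range of the 0% arrays. Its mean fell from 10.88 ± 0.14 to 10.21 ± 0.46 (SD, n = 4), by 0.67 on the log2 scale (SE 0.12, adjusted p = 0.00658 by limma). Among the 34 members tested MRTO4 and NOP16 alone had a larger fall. UTP20, under the limit in all fluids and not tested, differed by -0.83.

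The largest fall among the members tested was that of a large-subunit factor. MRTO4, which holds the place of the ribosomal stalk during assembly, stood at 9.34 in medium, 8.33 with NaCl and 6.92 with butyrate. It read 8.23, 7.75, 7.64 and 7.23 in vessels 1 to 4 at 0%, 7.65, 6.75, 7.40 and 6.92 at 1%, and 7.61, 6.91, 6.43 and 6.71 at 2%. Every fluid was below medium, and the 2% values overlapped those of 0% only through vessel 1. The change from 0% to 2% was -0.79 (SE 0.17, adjusted p = 0.0135 by limma), but the mean of its probe sets gave an adjusted p of 0.0572. The other MRTO4 probe set in that mean was dim (mean 3.43) and differed by -0.51. Without the 0% array of vessel 2 or 3 the adjusted p was 0.0574 or 0.0508.

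NOP16, a nucleolar protein needed for large-subunit assembly, fell from 8.23 ± 0.41 to 7.47 ± 0.54, a change of -0.76 (SE 0.15, adjusted p = 0.01 by limma). Averaged over its probe sets the change was -0.38 (adjusted p = 0.0225), and on the 8 arrays compared the adjusted p was 0.0509. That average takes in dim NOP16 probe sets with means of 2.25 and 1.88 (-0.16 and 0.06). The other bright one, with a mean of 7.96, differed by -0.64. WDR12 (-0.45) and PES1 (-0.46), which act together with BOP1 in a complex for maturation of large-subunit rRNA, also fell, as did RRS1 (-0.46), which brings in the 5S particle, and BRIX1 (-0.44). Averaged over its probe sets PES1 changed by -0.19 (adjusted p = 0.12), where the other probe set was dim (mean 1.94). Without the 2% array of vessel 3 WDR12 changed by -0.29 (adjusted p = 0.0766). BRIX1 was with NOP58 the only member whose 4 arrays of 2% all lay below the 4 of 0% (2 of 34, background 2.6%): 6.40, 5.96, 6.02 and 5.97 against 5.82, 5.71, 5.34 and 5.75. NOP2 (-0.22) and NIP7 (-0.07) did not pass the test. GNL2, a nucleolar GTPase, showed the opposite sign: 9.78, 9.73, 9.62 and 9.83 at 0% against 9.64, 9.95, 9.73 and 9.90 at 2% (0.06, adjusted p = 0.631), with 9.77, 9.69, 9.84 and 9.70 at 1%. The concentrations overlapped, all fluids were below medium at 10.29 and above NaCl at 9.53, and butyrate was at 9.82.

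Among small-subunit factors WDR43, part of the complex that binds the growing precursor, had the smallest adjusted p of all members. It stood at 9.05 in medium, 7.99 with NaCl and 7.35 with butyrate. In vessels 1 to 4 it read 8.38, 8.01, 8.03 and 7.99 at 0%, 8.23, 7.60, 7.60 and 7.54 at 1%, and 8.09, 7.42, 7.36 and 7.15 at 2%. Only vessel 1 at 2% reached the 0% range, and in each of the 4 vessels 0% was highest and 2% lowest. The change was -0.60 (SE 0.09, adjusted p = 0.00319 by limma).

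PNO1, which prepares the end of small-subunit rRNA for cutting, fell by 0.47 on the log2 scale, HEATR1 by 0.31 and IMP4, a protein of the U3 particle, by 0.31. The mean of the PNO1 probe sets did not pass (-0.31, adjusted p = 0.0767). HEATR1 and IMP4 lay just under the threshold, at adjusted p = 0.0498 and 0.0499. NOB1, the nuclease that PNO1 positions, changed by -0.18 (adjusted p = 0.116). RRP12 (-0.32, 0.0709) and BYSL (-0.36, 0.0644) lay just outside. WDR3 had the smallest change of the role: it read 8.64, 8.39, 8.23 and 8.15 at 0%, 8.24, 8.27, 8.19 and 8.06 at 1%, and 8.37, 8.17, 8.21 and 8.17 at 2% (-0.12, adjusted p = 0.289). Medium was above all of these at 8.91, butyrate was at 8.57, and NaCl was below all of them at 7.39.

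Of the particles that modify rRNA, 1 of 2 box C/D members and 1 of 3 box H/ACA members fell. NOP58, a core protein of box C/D particles, stood at 11.66 in medium, 10.97 with NaCl and 10.96 with butyrate. It read 11.47, 11.06, 10.99 and 11.11 at 0%, 11.22, 10.88, 10.89 and 10.97 at 1%, and 10.93, 10.82, 10.83 and 10.97 at 2%. The change was -0.27 (SE 0.08, adjusted p = 0.0395), and it was largest in vessel 1, at -0.54. Without the arrays of vessel 1 it was -0.18 and did not pass (adjusted p = 0.0581). FBL, the methyltransferase of the same particle, read 11.18, 10.85 and 11.03 in medium, NaCl and butyrate. Its fluid values were 10.98, 10.86, 10.86 and 10.75 at 0%, 10.93, 10.75, 10.83 and 10.80 at 1%, and 10.79, 10.75, 10.60 and 10.65 at 2%. It was lower at 2% in each vessel, by 0.10 to 0.26, but did not pass the test (-0.16, adjusted p = 0.102).

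NHP2 belongs to the box H/ACA particle, which makes pseudouridine, and stood at 11.07 (medium), 10.69 (NaCl) and 10.47 (butyrate). It read 10.69, 10.16, 10.28 and 9.92 at 0%, 10.49, 9.96, 9.94 and 9.79 at 1%, and 10.17, 9.90, 9.41 and 9.80 at 2%. The groups overlapped, and 2% was lower in every vessel (-0.45, SE 0.11, adjusted p = 0.0257 by limma). GAR1 of the same particle changed by -0.25 (adjusted p = 0.108). NOP10, again of that particle, read 11.80, 11.73, 11.65 and 11.54 at 0%, 11.68, 11.66, 11.68 and 11.61 at 1%, and 11.68, 11.64, 11.51 and 11.59 at 2%. The concentrations overlapped (-0.08, adjusted p = 0.417), and NaCl at 11.61 and butyrate at 11.64 lay within the fluids' range.

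Of the abundant nucleolar proteins NCL (nucleolin), a histone chaperone that also binds pre-rRNA, fell and NPM1 (nucleophosmin) did not pass the test. The 3 single arrays of NCL gave 12.98 (medium), 12.58 (NaCl) and 11.94 (butyrate). It read 12.46, 12.17, 12.18 and 12.10 at 0%, 12.35, 11.91, 11.92 and 11.88 at 1%, and 12.19, 11.82, 11.84 and 11.91 at 2%. All vessels were lower at 2%, and within a concentration vessel 1 was highest (-0.29, SE 0.06, adjusted p = 0.0154 by limma). The mean of its probe sets did not pass (-0.18, adjusted p = 0.114), and the other NCL probe set in that mean was dim (mean 2.26).

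NPM1 read 13.61 in medium, 13.48 with NaCl and 13.38 with butyrate. It was 13.51, 13.47, 13.48 and 13.51 at 0%, 13.47, 13.45, 13.50 and 13.44 at 1%, and 13.49, 13.44, 13.45 and 13.45 at 2% (-0.03, 95% interval -0.16 to 0.09, adjusted p = 0.698). These values are close to the highest in the whole table, 14.46. A dimmer probe set of NPM1, with a mean of 11.10, differed by -0.22 between 0% and 2% and by -0.58 between medium and 2%. The mean of its 3 probe sets changed by -0.12 from 0% to 2% (adjusted p = 0.187 by limma), so the size of the NPM1 value depends on the probe set read.

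DDX21, an RNA helicase of both rRNA transcription and processing, fell by 0.25 (adjusted p = 0.0413). NOLC1 (-0.10) and TCOF1 (-0.27), a nucleolar factor of rRNA transcription, did not pass. LYAR, a nucleolar protein of proliferating cells, differed between vessels. It stood at 10.11 in medium, 10.04 with NaCl and 9.28 with butyrate, and read 9.15, 8.70, 8.79 and 8.90 at 0%, 8.98, 8.81, 8.97 and 8.86 at 1%, and 8.52, 9.20, 8.95 and 9.32 at 2%. Its difference between 2% and 0% was -0.63 for vessel 1, and 0.50, 0.16 and 0.42 for the others in turn. The pooled change was 0.11 (adjusted p = 0.675), and without the arrays of vessel 1 it was 0.36 (adjusted p = 0.0299 by limma).

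None of the 3 RNA polymerase I members tested passed the test at 2% against 0%. POLR1B, one of its large catalytic subunits, read 9.36, 9.02 and 8.35 in medium, NaCl and butyrate. In the fluids it was 8.84, 8.37, 8.20 and 8.01 at 0%, 8.16, 8.05, 8.05 and 7.99 at 1%, and 8.30, 8.20, 8.32 and 8.02 at 2% (-0.14, adjusted p = 0.391). All fluids were below medium and NaCl, and the concentrations overlapped. Dimmer POLR1B probe sets with means of 6.33 and 4.99 differed by -0.52 and -0.11 between 0% and 2%, so the size depends on the probe set read.

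POLR1C, which RNA polymerase III shares, read 8.46, 8.94 and 7.50 in medium, NaCl and butyrate. It was 7.91, 7.83, 7.81 and 7.97 at 0%, 8.06, 7.58, 8.06 and 7.70 at 1%, and 7.85, 7.52, 7.62 and 7.86 at 2% (-0.17, adjusted p = 0.279). The other POLR1C probe set, with a mean of 7.31, differed by -0.35. POLR1E, a subunit that aids binding to the promoter, read 8.39, 7.93 and 8.73 in the same 3 arrays. Its fluid values were 8.0, 8.30, 7.94 and 7.80 at 0%, 8.09, 8.19, 8.29 and 8.24 at 1%, and 8.18, 8.17, 8.29 and 8.22 at 2%. The change of 0.20 (adjusted p = 0.17) turned to -0.23 when its dim probe sets were averaged in.

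POLR1A, the largest subunit, was 6.38 in medium and 5.85 with NaCl. It was 4.87 with butyrate, 5.03, 4.79, 4.99 and 4.87 at 0%, 5.02, 4.84, 4.63 and 4.87 at 1%, and 5.00, 4.23, 4.20 and 4.39 at 2%. Most of these lie under the limit of 5, so with butyrate the log2 difference from medium is only bounded, at -1.38 or lower. For UTP20 the bound was -1.53 or lower with butyrate and at each concentration. RRP9, a protein of the U3 particle, was at -1.41 or lower with butyrate and at 2%.

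**Figure D4:**
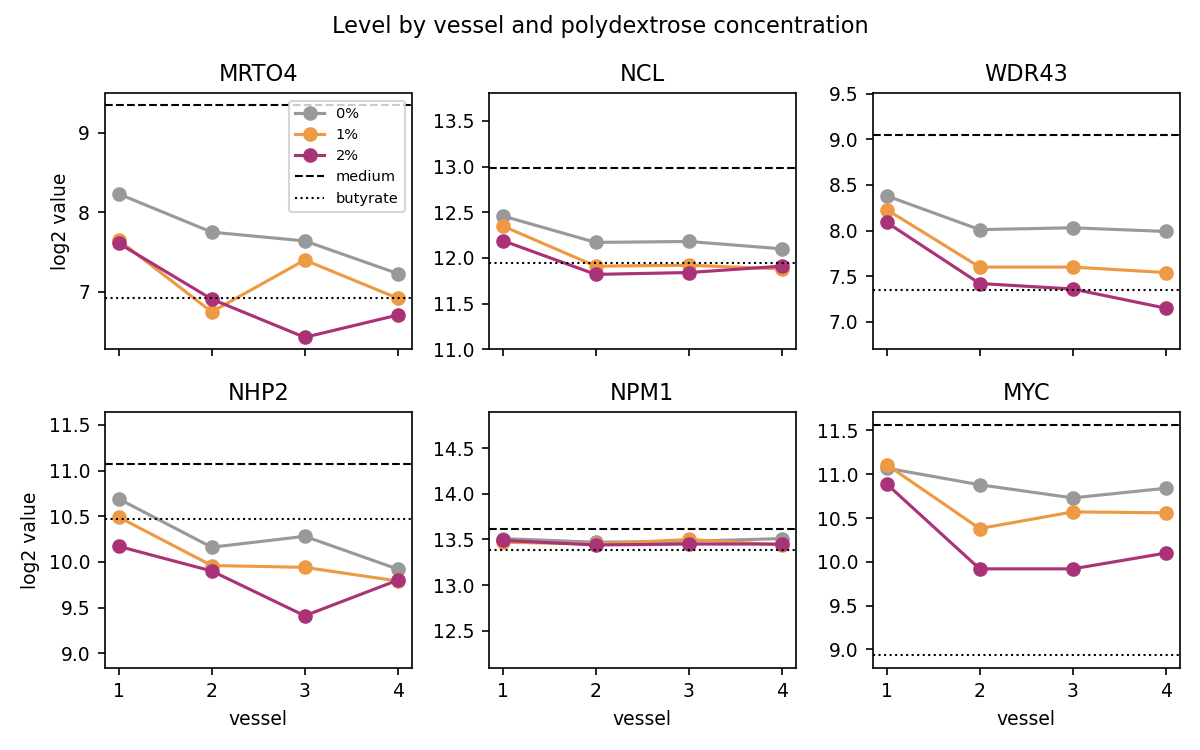
Log2 values by vessel (horizontal axis) at 0%, 1% and 2% polydextrose for MRTO4, NCL, WDR43, NHP2, NPM1 and MYC, with medium (dashed) and butyrate (dotted) as lines. Vessel 1 is the highest of its concentration for MRTO4, NCL, WDR43, NHP2 and MYC, and the NPM1 points lie between 13.44 and 13.51.

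The step from 0% to 1% was not called for any member by limma: 0 of 34 fell and 0 rose (backgrounds 2.15% and 2.63%), with 10 lower and 0 higher at an unadjusted p under 0.05 (backgrounds 11.5% and 13.4%). The median was -0.13, and 28 of 34 were below 0. WDR43 (-0.36, adjusted p = 0.0512) and NOP2 (-0.41, adjusted p = 0.0614) came closest. From 1% to 2% the counts were again 0 and 0 (backgrounds 0.0% and 0.0%), with 5 lower and 1 higher unadjusted (backgrounds 10.7% and 7.69%). MYC changed by -0.23 (adjusted p = 0.261) and by -0.44 (adjusted p = 0.15) in these steps.

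The members also differed by position along the colon model. In vessel 1, the ascending colon, 21 of 34 members were higher than in vessels 2 to 4 and 0 were lower by limma, where 19.3% of all genes tested were higher and 15.4% lower. The median was 0.34 against 0.02 over all genes, and 24 members were higher and 0 lower at an unadjusted p under 0.05 (backgrounds 25.9% and 20.2%). By role it was 8 of 11 small-subunit and 7 of 9 large-subunit factors, 4 of 6 nucleolar proteins, 1 of 3 box H/ACA, 1 of 2 box C/D and 0 of 3 RNA polymerase I genes.

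NOP16 (0.78, adjusted p = 0.0038 by limma), MRTO4 (0.75), TCOF1 (0.72), RRS1 (0.67) and WDR43 (0.60) differed most among the members tested. TCOF1 shows it in its values: 7.14, 7.31 and 6.62 in vessel 1 at 0%, 1% and 2%, against 6.01 to 6.75 in the other 9 fluid arrays. The vessel 1 arrays at 0% and 1% stand above all the others. Vessel 1 was above each other vessel at all 3 concentrations for 22 of 34 members (background 18.1%) and for MYC, whose difference was 0.59 (SE 0.11, adjusted p = 0.00462).

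Without concentration as a term limma called 0 of 34 members and 0 of all 8737 genes (21 members and 3157 genes at an unadjusted p under 0.05). A linear trend over the 4 vessels called 4 members and 197 genes higher. The arrays of vessel 1 at 0% and 1% also hold the 2 highest ACTB 3' to 5' values among the fluids, and their part was not tested.

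Whether the change from 0% to 2% differed between vessel 1 and the others was fitted as an interaction. Limma called 0 members lower and 0 higher in it (backgrounds 0.343% and 0.824%), with 4 lower and 2 higher at an unadjusted p under 0.05 (backgrounds 7.98% and 11.9%). LYAR came closest (-0.99, adjusted p = 0.0698). For MYC the change was -0.18 in the ascending vessel, and -0.96, -0.81 and -0.74 further along (interaction 0.66, adjusted p = 0.0923). The members' median change was -0.29, -0.26, -0.29 and -0.12 in vessels 1 to 4.

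Set directly against butyrate, the 2% fluids showed few members apart, while MYC was higher. On the mean of 4 vessels 1 of 32 members compared was at least 1.5-fold below butyrate (NHP2, -0.65) and 0 were above, where 7.88% of all genes were lower and 9.73% higher. At a 2-fold limit it was 0 (background 1.88%). The median was -0.02, with a range from -0.65 to 0.33 (NOB1). MYC was 1.27 higher in the 2% fluids, at 9.92 to 10.89 against 8.94. Butyrate is a single array, so no test of these differences was possible.

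**Figure D5:**
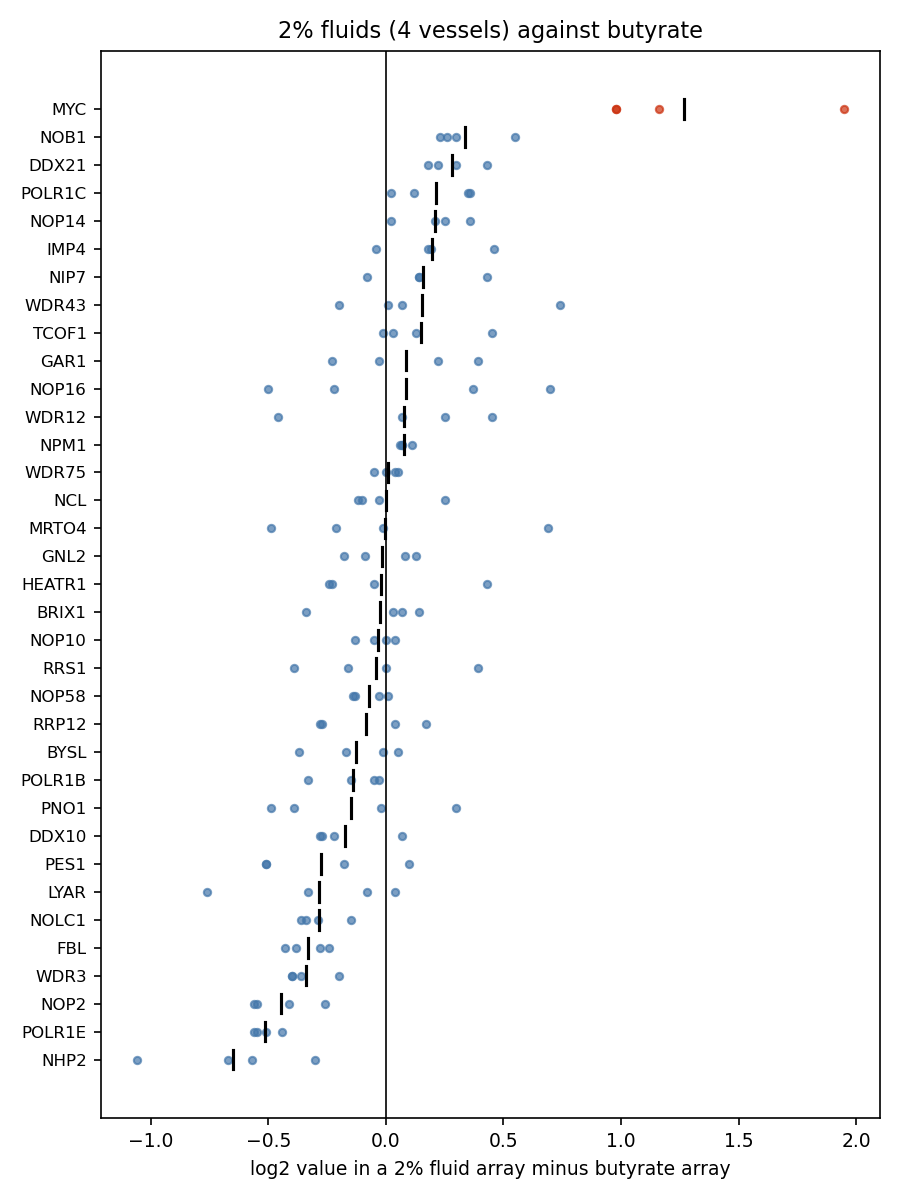
Log2 value in each of the 4 arrays of 2% fluid minus the butyrate array (horizontal axis) for 34 members (blue) and MYC (red), with the mean of 4 as a black bar. The members' means lie between -0.65 (NHP2) and 0.33 (NOB1), and that of MYC at 1.27.

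Over the 12 fluid arrays the members followed MYC to different degrees. As a description without a p, Pearson's r with MYC had a median of 0.748 over 34 members (Spearman's rho 0.762), from -0.449 to 0.926, and 31 were above 0. Over all genes tested the median was 0.104, and 19.4% were at or above 0.748. WDR43 (0.926), NOB1 (0.924) and IMP4 (0.915) were highest, and POLR1E (-0.449), LYAR (-0.43) and GNL2 (-0.415) were below 0. Over the 9 arrays of vessels 2 to 4 the median was 0.694, and without the 2 arrays farthest from the median of MYC it was 0.735. The arrays share the vessel and concentration effects given above.

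Genes of the same pathway outside the list were counted in the same comparison of 2% with 0%. Among other small-subunit factors 11 of 45 fell and 1 rose, with EMG1 (-0.56), an rRNA methyltransferase, and LTV1 (-0.52) falling and the kinase RIOK3 (0.34) rising, and the median was -0.13. Other large-subunit factors fell in 7 of 42 (median -0.08), among them WDR74 (-0.57), RRP15 (-0.54) and DDX54 (-0.48). Of other RNA polymerase I genes 2 of 10 fell, POLR1H (-0.47) and UBTF (-0.37), the factor that keeps rRNA genes open. RNA polymerase III genes fell in 5 of 14, with POLR3K at -0.63.

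Ribosomal protein genes, the structural part of the ribosome, did not pass the test in this comparison: limma called 0 of 38, with 0 at an unadjusted p under 0.05. Their changes lay between -0.05 and 0.09, and 0 of 38 were 1.5-fold from medium with butyrate or any fluid. They include the brightest probe sets (RPLP1 up to 14.33), and what such bright signals can show was not tested.

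In the MYC network MAX rose by 0.35 (adjusted p = 0.0267) while MYC fell, and these were the only calls among 9 genes. Of 28 other known MYC targets 12 fell and 1 rose, among the first HSPE1 (-0.59), NME1 (-0.41) and ATIC (-0.36), with a median of -0.23. Among 11 genes of the signals that set ribosome production, SESN3 (0.61) and TSC1 (0.34), both brakes on the mTOR growth pathway, rose and none fell. These shares stand beside the 11.2% and 9.65% of all genes given above.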

How the data were processed

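The authors deposited 1 table of log2 values for 54675 probe sets on 15 arrays. GCRMA, a method for background correction, normalization and probe summary, is named in the submitters' processing notes. That the scale is log2 was inferred from the values (0.173 to 14.46). No other upstream setting is given in the sources used here. Of the probe sets 41097 had 1 gene symbol, 1801 several and 11777 none.

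The 8737 genes that reached log2 5 on 4 or more of the 12 fluid arrays entered limma 3.58.1 (R 4.3.3), with concentration and vessel as factors, 6 residual degrees of freedom (5 with the interaction) and a median residual SD of 0.147. P-values were two-sided, adjusted by Benjamini-Hochberg over all genes tested, at a threshold of 0.05. The scripts were tested on simulated data. The vessel pairs arrays by the labels: with concentration means removed, 12 same-vessel pairs correlated at a median of 0.376 (0.024 to 0.781, 10 above 0.1), and other pairs at -0.114. Removing the means pushes other pairs below 0 when same-vessel pairs correlate, so the second value is not a separate contrast. Single arrays were compared by differences, for genes at log2 6 or more on the brighter side, and where every array of a side was under 5 the difference is a bound computed from 5. For arrays the number of arrays limits the precision.

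Members and gene lists were chosen with earlier results of these data known. All 43 listed genes and MYC could be named. Named with every array were the largest fall and the largest rise or smallest fall of each role at 2% against 0%, and NPM1, NCL, FBL, POLR1A, POLR1B and MYC. Of other lists, up to 3 genes with the smallest p were named, and markers by level. Alternatives were filters, probe set rules, normalization, priors, array weights, terms and left-out arrays.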

Additional observations from a re-analysis of the deposited data

Results flagged for a closer look

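In groups of 4 vessels, 114 groups of values (the 37 members and MYC at 3 concentrations) were searched for a single vessel standing apart by Dixon's ratio. It was found in 9, a share not far from the about 1 in 20 that chance alone gives in independent groups. These groups share the same 12 arrays, so they are not independent. In all 9 it was vessel 1 that was highest, which restates the vessel 1 difference given above. At 0% these were GAR1 at 10.18 (the other vessels 9.86 to 9.90), NOP14 at 7.53 (6.91 to 6.99), WDR43 at 8.38 (7.99 to 8.03) and BRIX1 at 6.40 (5.96 to 6.02). At 1% NCL stood at 12.35 (11.88 to 11.92), WDR43 at 8.23 (7.54 to 7.60), NOP16 at 8.30 (7.52 to 7.57) and PES1 at 8.67 (7.88 to 7.89). At 2% DDX10 stood at 7.88 (7.53 to 7.59).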

How the results depend on the processing

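In the analysis without the vessel as a replicate block (no pairing), 0 members fell from 0% to 2%, and MYC kept its -0.67 but not its call (adjusted p 0.214). In the comparison of vessel 1 with the others without a concentration term, 0 members were higher, and MYC kept its 0.59 but not its call (adjusted p 0.0914). Fitting the 8 arrays compared gave 4 members that fell, and 454 of all 8737 genes. A linear trend over vessels gave 4 members, 197 of all genes higher, and 0.16 for MYC. Array weights gave 1 member that rose (LYAR) from 0% to 2%, 9 that fell from 0% to 1%, 2 from 1% to 2%, 13 higher in vessel 1, and 4 lower and 2 higher in the interaction, with MYC at -0.37, -0.45 and 0.69. Over all 8737 genes the same counts were 1833, 860, 434, 1492, 837 and 1216 with array weights. In the main fit they were 843, 188, 0, 1687, 30 and 72, so calls changed over the whole array. For 0% to 1%, 1 member fell with a limit of log2 6, with averaged probe sets and with quantile normalization, and 2 with an intensity trend and robust prior, which also gave 1 lower member and a called MYC (0.66) in the interaction. Without vessel 1, 1 member rose from 0% to 2%, and MYC was called at -0.32 (1% against 0%) and -0.52 (2% against 1%). Leaving out 1 array or vessel 1, the counts ran from 2 to 14 and 0 to 1 (fell, rose, 2% against 0%), 0 to 3 (fell, 1% against 0%), 14 to 21 (higher in vessel 1), 0 to 1 (lower in the interaction) and 0 to 1 (below butyrate), and MYC from -0.36 to -0.14 and from -0.56 to -0.39 in the steps to and from 1%. Over all genes the left-out fits gave 360 to 1756 that fell and 296 to 1449 that rose (2% against 0%). They gave 0 to 609 that fell (1% against 0%), 837 to 2119 higher in vessel 1 and 0 to 126 lower in the interaction. Against NaCl in place of medium 15 (0%) and 19 (1%) members were 1.5-fold lower. At a 2-fold limit 4 (NaCl), 15 (0%) and 19 (1%) were below medium, and 0 (2%) below butyrate. The causes were not tested. No called member changed sign under the alternatives that read 1 value per gene. With every probe set on its own, a dimmer HEATR1 probe set (mean 5.27) differed by -0.255 between vessel 1 and the others. HEATR1 had been called higher there (0.43). Dim probe sets, single arrays and signals near the top of the scale limit what can be shown.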
